A study of Mus musculus with 16 samples.

Results

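*Malat1*, *Neat1* and 5 long noncoding RNA (lncRNA) genes that host small nucleolar RNAs (snoRNAs), *Gas5*, *Snhg1*, *Snhg6*, *Snhg8* and *Snhg12*, were followed across the 4 groups of foam cells, 7 of the 48432 genes in the table. They were picked by symbol, after the mean of *Malat1* had been seen to be above its control in LDAH-Tg and below it in LDAH-KO macrophages. The direction of *Malat1* is therefore the basis of the choice and is given as a description. Peritoneal macrophages (PM) of mice labelled C57BL/6J were harvested 5 days after an injection of 3% thioglycolate, which draws macrophages into the peritoneum, and were loaded with oxidised LDL (oxLDL) at 50 μg/ml for 48 h. There were 16 samples. The 4 groups, of 4 samples each, were LDAH-Tg, which carry a hemizygous *Ldah* transgene, LDAH-Tg control, whose genotype label also names ApoE, LDAH-KO, and the WT littermates of LDAH-KO. The transgenic founders were of mixed background and were backcrossed to C57BL/6. The transgene is driven by the promoter and enhancer of *Csf1r*, which are active in myeloid cells, and the KO allele has a cassette in place of the first coding exons of *Ldah*, which encodes a lipid droplet hydrolase. The *Apoe* genotype of the mice that gave the PM was not given clearly in the sources used here.

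The values are the authors' mean of each group, as TPM (transcripts per 1000000), a length-corrected share of the library. No mouse can be seen singly, so the differences below carry neither an SD nor a p-value, the depth is unknown, and whether 2 groups overlap cannot be known. Ratios are log2 of (TPM + 0.5) in one group over the other, for genes with a mean of at least 1 TPM over the pair and neither group at 0. Counts use a factor of 1.5 in either direction, and in places a smaller one of 5/4, which are sizes and not tests. *Ldah* itself had 124 TPM in LDAH-Tg and 28.5 TPM in LDAH-Tg control PM, and 27.9 TPM in LDAH-KO and 44.5 TPM in WT PM, in the direction of the labels. The cassette of the KO allele replaces the first coding exons, and whether the *Ldah* reads left in LDAH-KO PM come from later exons was not tested. *Apoe* was at 7947 TPM in LDAH-Tg, 8775 TPM in LDAH-Tg control, 10404 TPM in LDAH-KO and 9565 TPM in WT PM. The macrophage markers *Csf1r*, *Cd68*, *Adgre1* and *Itgam* were present in every group, with *Cd68* between 3023 and 4959 TPM. Erythroid markers were at 0 and markers of T and NK cells summed to less than 1 TPM in each group. Neutrophil markers summed to 99.7 TPM in LDAH-Tg, 107 TPM in LDAH-Tg control, 68.3 TPM in LDAH-KO and 63.8 TPM in WT PM. B cell markers summed to 15.8, 12.7, 20.6 and 21.8 TPM in the same order. Of 8 listed macrophage markers, 7 could be compared. In LDAH-Tg PM 6 were lower, 2 by 5/4, where 49.5% and 5.07% of all genes were, and *Adgre1* was lowest (log2 -0.55). In LDAH-KO PM 4 were lower, 1 by 5/4, where 66.6% and 9.85% of all genes were. The marker *Lyz2* and most mitochondrially encoded mRNAs are listed at 0 in at least 1 group, so a 0 in this table does not show that a transcript was absent. In bulk RNA, fewer cells of a type and less RNA per cell cannot be told apart.

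*Malat1* and *Neat1* are neighbouring nuclear RNAs that are not translated. *Malat1* gathers in nuclear speckles, where splicing factors are stored, and the long isoform of *Neat1* is the scaffold on which paraspeckles form, while a shorter isoform shares its start and ends at a poly(A) site. Both are known in macrophages, where *Neat1* and *Malat1* levels respond to inflammatory signals. The host genes work differently. Their introns hold snoRNAs, which guide chemical modification of ribosomal RNA, and the spliced exons left over are for the most part not translated into stable protein. Several of these spliced RNAs begin with a run of pyrimidines like that of ribosomal protein mRNAs, and those of *Gas5* and *Snhg1* are known substrates of nonsense-mediated decay, the pathway that removes RNAs with early stop codons.

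*Malat1* (ENSMUSG00000092341.2) lies on the minus strand of chromosome 19 at 5795690 to 5802672 (GRCm38, GENCODE M21), and *Neat1* lies on the same strand of that chromosome at 5824708 to 5845478. The longest annotated transcripts are 6983 bases for *Malat1* and 20771 bases for *Neat1*, whose shorter form has 3004 bases. The 3′ end shared by *Malat1* and the long form of *Neat1* is shown because it bears on what a library selected for poly(A) may hold. In each, a stretch rich in T (TTTTGCTTTT) is followed within 60 bases by at least 5 A and then GCAAAA. The T and A stretches are known to fold into a triple helix that guards the cut end of either RNA, which takes the place of a poly(A) tail. Both stretches are in capitals below, on the minus strand, from chr19:5795962-5796047 for *Malat1* and chr19:5824708-5824780 for *Neat1*.
Malat1: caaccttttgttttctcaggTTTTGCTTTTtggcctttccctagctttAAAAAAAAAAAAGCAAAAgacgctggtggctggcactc
Neat1: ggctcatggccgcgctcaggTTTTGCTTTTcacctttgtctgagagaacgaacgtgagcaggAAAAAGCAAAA
The A stretch has 12 A in *Malat1* and 5 A in *Neat1* before the shared GCAAAA. It ends 292 bases before the annotated end of the *Malat1* transcript and at the very end of the *Neat1* transcript. Of 55450 genes with a transcript in GENCODE M21, 2 hold this pair in their longest transcript, and they are *Malat1* and *Neat1*. The search was made on the sense strand only and its letters were taken from these genes. The libraries were enriched for poly(A), and how much of the tail-less RNA was captured in each group was not tested.

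*Neat1* was the most abundant of the 7 in LDAH-Tg and LDAH-Tg control PM, and *Malat1* followed behind *Gas5*. *Malat1* had 288 TPM in LDAH-Tg PM, against 172 TPM in LDAH-Tg control PM, a ratio of 1.67 (log2 0.74). *Neat1* had 1024 TPM in LDAH-Tg PM, against 611 TPM in LDAH-Tg control PM, a ratio of 1.68 (log2 0.75). Both were thus higher in LDAH-Tg PM by almost the same factor, and *Neat1* held 3.56 times the TPM of *Malat1* in LDAH-Tg and 3.54 times in LDAH-Tg control PM. The TPM of *Neat1* depends on which transcript length was used, which was not given, and so does its ratio between groups if that length was set in each sample by the isoforms present. Together they took 1312 TPM of the LDAH-Tg libraries and 783 TPM of the LDAH-Tg control libraries.

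Against WT PM, LDAH-KO PM had less of *Malat1* and a smaller difference in *Neat1*. *Malat1* was at 38.9 TPM in LDAH-KO PM and 70.0 TPM in WT PM, a ratio of 0.556 (log2 -0.84). *Neat1* was at 140 TPM in LDAH-KO PM and 169 TPM in WT PM, a ratio of 0.826 (log2 -0.27), which does not reach a factor of 1.5 or of 5/4. The TPM of *Neat1* over that of *Malat1* was 3.59 in LDAH-KO and 2.42 in WT PM, a wider margin in LDAH-KO PM. *Gas5*, at 153 TPM, stood above *Neat1* in LDAH-KO PM, whereas *Neat1* stood above *Gas5* in WT PM, and the spread needed to order these neighbours is unknown. *Malat1* and *Neat1* together had 179 TPM in LDAH-KO and 239 TPM in WT PM.

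**Figure D1:**
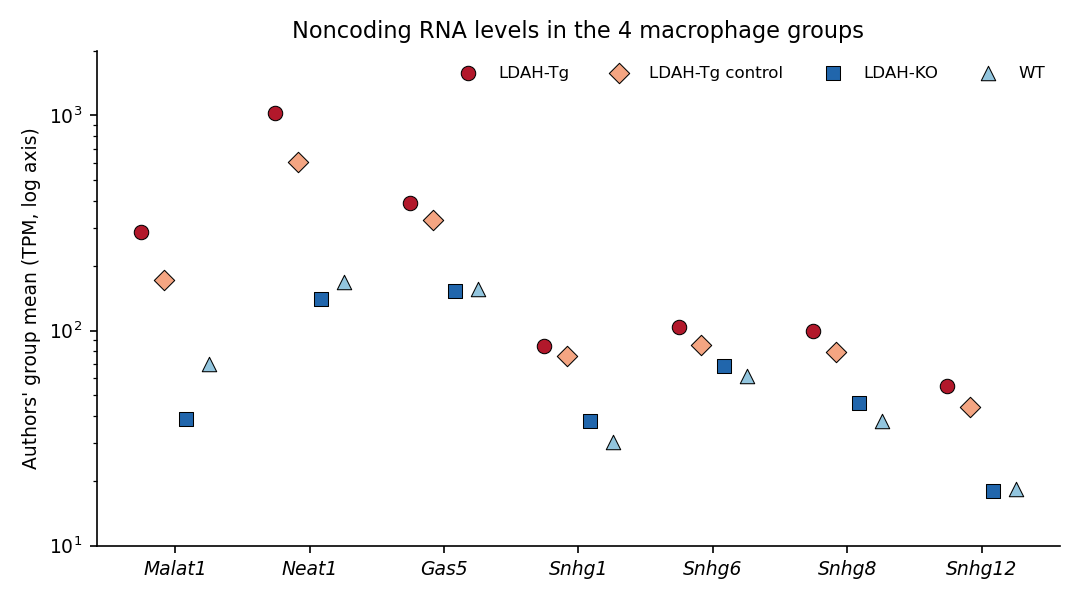
Authors' mean TPM (log axis) of the 7 noncoding genes, 1 point for each group of 4 samples and no error, since only means were used here. All 7 stood higher in LDAH-Tg than in LDAH-Tg control PM, the widest gaps being those of *Malat1* (288 and 172 TPM) and *Neat1* (1024 and 611 TPM), and in LDAH-KO PM only *Malat1* was below WT by a factor of 1.5 (38.9 and 70.0 TPM).

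*Gas5*, which is named for its accumulation in growth-arrested cells, was the most abundant host gene in every group. It had 392 TPM in LDAH-Tg PM, against 325 TPM in LDAH-Tg control PM (log2 0.27), and 153 TPM in LDAH-KO PM and 156 TPM in WT PM (log2 -0.03). *Snhg6* had 104 TPM in LDAH-Tg and 86.1 TPM in LDAH-Tg control PM (log2 0.27), and 68.4 TPM in LDAH-KO and 61.8 TPM in WT PM (log2 0.15). *Snhg8* had 99.4 TPM in LDAH-Tg and 79.6 TPM in LDAH-Tg control PM (log2 0.32), and 46.1 TPM in LDAH-KO and 37.8 TPM in WT PM (log2 0.28). In LDAH-Tg PM these 3 were higher by similar and small factors, while in LDAH-KO PM *Snhg6* and *Snhg8* were also a little higher and *Gas5* was level. *Snhg1*, the host of the U22 snoRNA, had 85.1 TPM in LDAH-Tg and 76.1 TPM in LDAH-Tg control PM (log2 0.16), and 37.9 TPM in LDAH-KO and 30.2 TPM in WT PM (log2 0.32). *Snhg12* was the least abundant, with 55.4 TPM in LDAH-Tg and 44.1 TPM in LDAH-Tg control PM (log2 0.33), and 18.0 TPM in LDAH-KO and 18.4 TPM in WT PM (log2 -0.03). *Snhg1* thus had the smallest ratio of the 7 in LDAH-Tg PM and the highest in LDAH-KO PM. The 5 host genes summed to 736 TPM in LDAH-Tg and 611 TPM in LDAH-Tg control PM, and to 323 TPM in LDAH-KO and 304 TPM in WT PM, so their sum lay higher in the LDAH-KO PM while that of *Malat1* and *Neat1* lay lower.

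Set against all genes, the counts read as follows. In LDAH-Tg PM 2 of the 7, *Malat1* and *Neat1*, were higher by a factor of 1.5 and none was lower, where 1.26% of 11395 genes were higher and 0.685% lower. At a factor of 5/4, 3 of the 7 were higher, with *Snhg12* added at a ratio of 1.26, and none was lower, against 7.55% of all genes higher and 5.07% lower. All 7 had a ratio above 1, as did 50.5% of all genes, their median log2 ratio was 0.32, and the median over all genes was 0.002. In LDAH-KO PM 1 of the 7, *Malat1*, was lower by a factor of 1.5 and none was higher, where 1.83% of 11289 genes were lower and 0.39% higher. At a factor of 5/4 *Snhg1* alone was higher, against 2.0% of all genes, and *Malat1* alone was lower, against 9.85%. There 3 of the 7 were above a ratio of 1 and 4 below it, where 33.4% of all genes were above it, with a median of -0.03 beside -0.08 over all genes. These counts use the contrast by which *Malat1* was chosen and support nothing about it.

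Ranks among all genes place *Malat1* and *Neat1* farther out than the host genes. In LDAH-Tg PM 67 genes (0.588%) had a higher ratio than *Malat1* and 66 (0.579%) a higher one than *Neat1*, but 7.41% had one above *Snhg12*, 7.71% above *Snhg8*, 10.6% above *Snhg6*, 10.8% above *Gas5* and 21.7% above *Snhg1*. In LDAH-KO PM 0.735% of genes had a lower ratio than *Malat1*, and 14.3% a lower one than *Neat1*. At the other end, 1.99% had a higher ratio than *Snhg1* and 2.76% a higher one than *Snhg8*. Of 10855 genes with a ratio in both comparisons, 11 passed a factor of 1.5 upward in LDAH-Tg and downward in LDAH-KO PM, and 7 did the opposite. With at least 20 TPM on average in both comparisons, 3 of the 11 remain, namely *Malat1*, *Ldah* and *Mir703*, a microRNA entry of 109 bases. *Malat1* was chosen for these directions, so its ranks and its place among these genes are descriptions and support nothing.

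**Figure D2:**
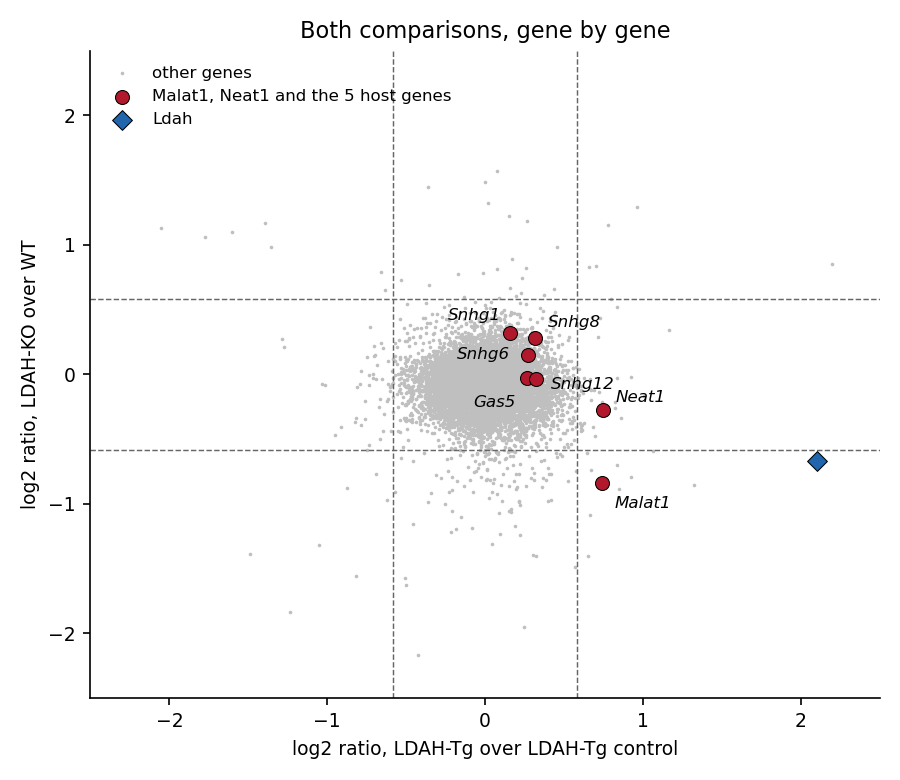
Log2 ratio of LDAH-Tg over LDAH-Tg control PM (x axis) against that of LDAH-KO over WT PM (y axis) for 10855 genes, with the dashed lines at a factor of 1.5. *Malat1* lies at 0.74 and -0.84, beyond both lines in opposite directions as *Ldah* does at 2.10 and -0.67, *Neat1* lies beyond the line of LDAH-Tg alone, and the 5 host genes lie inside all lines. The directions of *Malat1* are those by which it was chosen.

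Transcript length moved with the LDAH-KO comparison and bears on the 2 longest of the 7. Among protein-coding genes, the median log2 ratio of LDAH-KO over WT PM was 0.13 for longest transcripts of up to 1000 bases, -0.03 at 2000 to 3000 bases, -0.23 at 6000 to 8000 bases and -0.31 above 8000 bases, where 94.8% of genes were lower. In LDAH-Tg over LDAH-Tg control PM the medians of the same bins were 0.06, -0.01, -0.01 and 0.002. Relative to the bin of its own length, *Malat1* was at -0.61 in LDAH-KO PM, still past a factor of 1.5, and *Neat1* was at 0.04. With the length of its shorter transcript, *Neat1* was at -0.19. *Snhg1*, with a longest annotated transcript of 2728 bases, was at 0.35 relative to its bin. Shorter classes had higher medians, 0.05 at 1000 to 2000 bases and 0.13 up to 1000 bases, and against these *Snhg1* would stand out less. *Snhg8*, a transcript of 776 bases, was at 0.15, where its own ratio was 0.28. *Snhg6* was level with its bin, at 0.01. The share of G and C moved with both comparisons, in LDAH-Tg PM from a median of -0.09 in protein-coding genes of up to 42% to 0.14 in those above 58%. The 7 noncoding transcripts, with 40.5% to 47.6% G and C, are in the classes with medians below 0, and relative to those classes *Malat1* was at 0.81, *Neat1* at 0.78 and the 5 host genes at 0.25 to 0.39. In LDAH-KO PM the medians went in the same sense, with -0.12 up to 42% and -0.009 above 58%, and relative to these classes *Malat1* was at -0.73, *Neat1* at -0.18, *Snhg1* at 0.44, *Snhg8* at 0.39 and *Snhg6* at 0.26. How much RNA quality, depth or library preparation took part in either trend was not tested.

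**Figure D3:**
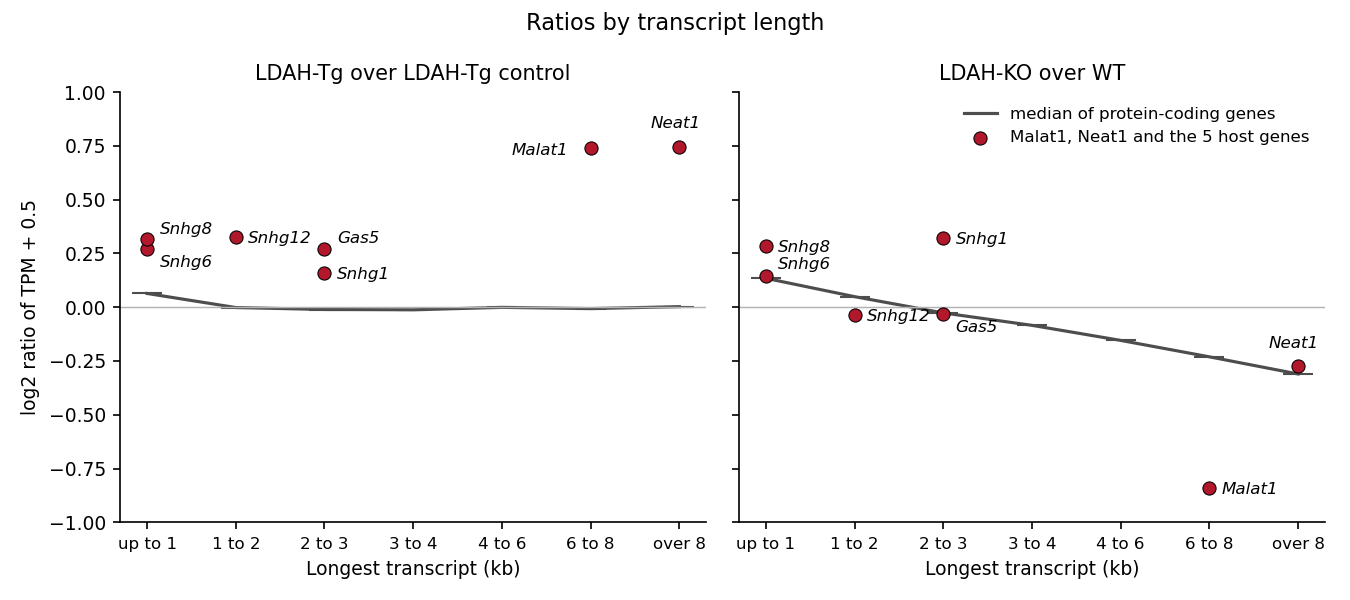
Log2 ratios of the 7 noncoding genes (red points) by the length of their longest transcript, with the median of protein-coding genes in each length class (grey line), for LDAH-Tg over LDAH-Tg control PM (left) and LDAH-KO over WT PM (right). The line is near 0 at all lengths on the left and goes down to -0.31 on the right, where *Neat1* (-0.27) is next to it, *Malat1* (-0.84) is below it and *Snhg1* (0.32) is above it.

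Markers of stromal cells also moved in the LDAH-KO comparison. All 4 of the 6 fibroblast markers that could be compared were lower by a factor of 1.5, with a median of -1.20, and the 6 summed to 17.9 TPM in LDAH-KO and 36.3 TPM in WT PM, none being at 0. The 2 mesothelial markers with a ratio, *Wt1* and *Upk3b*, were lower as well (median -0.88), and the list of 7 summed to 4.58 TPM in LDAH-KO and 7.49 TPM in WT PM. In the LDAH-Tg comparison the fibroblast sums were 26.6 TPM in LDAH-Tg and 26.9 TPM in LDAH-Tg control PM. The part of such cells in the ratios of *Malat1* and *Neat1* was not tested.

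The starts of the host genes are shown because RNAs of this class are known to begin within a run of C and T, as the mRNAs of ribosomal proteins do, and TATA is marked as a further landmark of a promoter. Each line runs from 50 bases before the start of transcription to 20 bases from it, 5′ to 3′, as RefSeq places the start on GRCm38.p6, and capitals mark TATA and the unbroken run of C and T over the start. *Gas5* has 2 starts in the RefSeq table, and *Neat1* and *Snhg6* were not matched.
Gas5, chr1:161034551-161034620: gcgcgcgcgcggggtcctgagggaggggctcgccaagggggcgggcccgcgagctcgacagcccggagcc
Gas5, chr1:161035116-161035185: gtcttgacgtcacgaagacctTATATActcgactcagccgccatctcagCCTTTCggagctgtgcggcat
Snhg1, chr19:8723437-8723506: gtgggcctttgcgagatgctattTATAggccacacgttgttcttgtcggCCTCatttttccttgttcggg
Snhg8, chr3:123508317-123508386: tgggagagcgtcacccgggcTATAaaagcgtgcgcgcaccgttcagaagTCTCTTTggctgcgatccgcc
Snhg12, chr4:132308628-132308697: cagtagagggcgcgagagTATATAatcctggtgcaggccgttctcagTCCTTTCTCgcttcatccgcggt
Malat1, chr19:5802653-5802722: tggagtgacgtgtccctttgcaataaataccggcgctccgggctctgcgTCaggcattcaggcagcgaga
*Snhg8* and *Malat1* are on the minus strand and the others on the plus strand. The letters TATA stand in the 50 bases before 4 of these 6 starts, the second of *Gas5* and those of *Snhg1*, *Snhg8* and *Snhg12*, and before 9.08% of 32851 starts in the table, searched on the strand of the gene. The run of C and T over the start has 9 bases in *Snhg12*, 7 in *Snhg8*, 6 in *Gas5*, 4 in *Snhg1* and 2 in *Malat1*, while 7.25% of all starts lie in a run of at least 6. Both features together are found at 0.56% of all starts, and at *Gas5*, *Snhg8* and *Snhg12* here. A match is a description of the sequence and not of a factor bound there. These 3 had log2 ratios between 0.27 and 0.33 in LDAH-Tg PM and between -0.03 and 0.28 in LDAH-KO PM.

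The mRNAs known for pyrimidine starts did not share the ratios of the host genes in LDAH-Tg PM. Of 40 terminal oligopyrimidine mRNAs (ribosomal proteins and translation factors), 19 had a ratio above 1 in LDAH-Tg PM, against 50.5% of all genes. None was past a factor of 5/4 in either direction, and the median was -0.03. In LDAH-KO PM 33 of the 40 were above 1, against 33.4% of all genes, with a median of 0.10. The longest annotated transcripts of the list have a median of 1713.5 bases, a class at 0.05 in LDAH-KO PM, where 34.3% of protein-coding genes were lower. The class of up to 1000 bases was at 0.13 there, with 17.4% lower. Which class holds the transcripts expressed was not tested, so the list cannot be placed above or level with its length class. *Rps20*, a protein of the small ribosomal subunit and itself a snoRNA host, had 501 TPM in LDAH-KO and 388 TPM in WT PM (log2 0.37). *Rps20* also had the highest ratio of the list in LDAH-Tg PM, with 1192 TPM there and 969 TPM in LDAH-Tg control PM (log2 0.30). *Rps4x* had 1665 TPM in LDAH-KO and 1388 TPM in WT PM (log2 0.26).

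Other noncoding snoRNA hosts had a median close to that of the 5. Of 16 further noncoding hosts listed by name, 12 could be compared in LDAH-Tg PM. Of these, 10 had a ratio above 1, 7 one past 5/4 and none one past 1.5, while 2 were lower by 1.5. Over all genes 50.5% were above 1, 7.55% were higher by 5/4 and 0.685% were lower by 1.5. The median of the 12 was 0.33, next to 0.27 for the 5 host genes. *Snhg20* had 54.1 TPM in LDAH-Tg and 35.9 TPM in LDAH-Tg control PM (log2 0.58), just short of the factor. Those lower were *Snhg9*, with 5.89 TPM in LDAH-Tg and 9.58 TPM in LDAH-Tg control PM (log2 -0.66), and the entry named *Snhg7*, near 0 in LDAH-Tg PM with 7.69 TPM in LDAH-Tg control PM. The annotation gives that entry as a snoRNA of 139 bases, so it does not measure the host RNA. In LDAH-KO PM 7 of 11 were above a ratio of 1, against 33.4% of all genes, with a median of 0.02. *Snhg9* was the only one past 1.5, at 2.14 TPM in LDAH-KO and 1.03 TPM in WT PM (log2 0.79), where 0.39% of all genes were higher. Taken by annotation, 21 further noncoding genes with a whole snoRNA gene inside them had a median of 0.33 in LDAH-Tg PM, with 16 above 1. The 214 protein-coding genes that hold one had a median of -0.02, with 95 above 1, where 50.5% of all genes were. Of 7188 other long noncoding genes that hold no annotated snoRNA, 444 could be compared in LDAH-Tg PM. Of these, 337 were above a ratio of 1 and 107 below it, and the median was 0.17. By 1.5, 24 were higher and 2 lower, against 1.26% and 0.685% of all genes. In LDAH-KO PM 142 of 297 were above 1, against 33.4% of all genes, with a median of -0.01.

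The snoRNAs that the 5 genes host were for the most part not measured. GENCODE M21 places 25 snoRNA entries inside them (10 in *Gas5*, 8 in *Snhg1*, 5 in *Snhg12* and 1 each in *Snhg6* and *Snhg8*), and 21 of these are listed at 0 in all 4 groups. *Snord22* in *Snhg1*, a C/D box snoRNA, is the one with a value above 0 in every group. Its sequence is given since its value is read as that of a snoRNA and lies over exons of the host. It is at chr19:8725866-8725991 on the plus strand (GENCODE M21), and capitals mark CTGA, the letters of the D box, which 73.7% of 996 annotated snoRNAs of 100 to 150 bases hold somewhere on their strand.
Snord22: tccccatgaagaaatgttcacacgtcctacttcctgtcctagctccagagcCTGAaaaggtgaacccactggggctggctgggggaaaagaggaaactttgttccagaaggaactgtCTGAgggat
*Snord22* had 68.9 TPM in LDAH-Tg and 14.6 TPM in LDAH-Tg control PM (a ratio of 4.59), and 15.0 TPM in LDAH-KO and 8.09 TPM in WT PM. It was therefore higher in both genotypes than in their controls, and its ratio in LDAH-Tg PM was above that of *Ldah*. Its host *Snhg1* was at log2 0.16 and 0.32 in these comparisons. Of 18 annotated transcripts of *Snhg1*, 5 have an exon over *Snord22*, so reads of those transcripts and of the snoRNA cannot be told apart by position, and a gene of 126 bases is hardly longer than a read. *Snora24* in *Snhg8* is listed at 0 in LDAH-Tg PM with 2.92 TPM in their controls, and at 0 in LDAH-KO and WT PM. One entry of *Snora16a* in *Snhg12* had 4.07 TPM in LDAH-Tg PM and is listed at 0 in their controls, and is listed at 0 in LDAH-KO PM with 5.72 TPM in WT PM.

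The proteins of the bodies that *Malat1* and *Neat1* occupy were taken as lists for paraspeckles and speckles. Of 19 paraspeckle proteins, 7 were above a ratio of 1 in LDAH-Tg PM (median -0.03), against 50.5% of all genes. There 3 were higher by 5/4, where 7.55% of all genes were, and the RNA-binding proteins *Hnrnph3* and *Ewsr1* were among the 3. *Hnrnph3* had 32.5 TPM in LDAH-Tg and 23.8 TPM in LDAH-Tg control PM (log2 0.44), and *Ewsr1* had 412 TPM in LDAH-Tg and 311 TPM in LDAH-Tg control PM (log2 0.41). In LDAH-KO PM, where 33.4% of all genes were above 1, 1 of the 19 was (median -0.12), and *Rbm12* had the lowest ratio, with 7.82 TPM in LDAH-KO and 12.0 TPM in WT PM (log2 -0.58). Of 23 proteins of nuclear speckles and splicing, 19 were above 1 in LDAH-Tg PM (median 0.14), against 50.5% of all genes. In LDAH-KO PM 5 were (median -0.13), against 33.4% of all genes, and none was past 1.5 in either comparison. At 5/4, 6 were higher and none lower in LDAH-Tg PM, against 7.55% and 5.07% of all genes, and 2 were lower and none higher in LDAH-KO PM, against 9.85% and 2.0%. *Srrm2*, a core component of the speckle, had 105 TPM in LDAH-Tg and 72.1 TPM in LDAH-Tg control PM (log2 0.55), and 27.4 TPM in LDAH-KO and 40.2 TPM in WT PM (log2 -0.54). *Srsf11*, an SR splicing factor, had 131 TPM in LDAH-Tg and 94.8 TPM in LDAH-Tg control PM (log2 0.47). *Clk4*, a kinase of SR proteins, had 131 TPM in LDAH-Tg and 99.5 TPM in LDAH-Tg control PM (log2 0.40). The longest transcript of *Srrm2* has 8864 bases, and relative to protein-coding genes of its length class, at -0.31 in LDAH-KO PM, it was at -0.23. The median lengths are 3508 bases for the paraspeckle list and 3543 bases for the speckle list. Both are in a class at -0.08 in LDAH-KO PM, where 76.2% of protein-coding genes were lower.

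Protein factors that make or clear these RNAs came next. The 13 genes for the processing and stability of *Malat1*, among them subunits of RNase P, which cuts its 3′ end, had a median of 0.02 for LDAH-Tg and of 0.03 for LDAH-KO PM, with none past 5/4. *Pop1* had 6.93 TPM in LDAH-Tg and 5.81 TPM in LDAH-Tg control PM (log2 0.24). The 17 proteins of snoRNA particles and their assembly had a median of -0.08 for LDAH-Tg and of 0.03 for LDAH-KO PM, again with none past 5/4. Of 15 nonsense-mediated decay factors, 11 were above a ratio of 1 in LDAH-Tg PM (median 0.20), against 50.5% of all genes. In LDAH-KO PM 5 were (median -0.09), against 33.4% of all genes, and 2 were lower by 5/4, against 9.85%. *Smg1*, the kinase of that pathway, had 15.8 TPM in LDAH-KO and 22.7 TPM in WT PM (log2 -0.51). The median length of the decay list is 3698 bases, a class at -0.08 in LDAH-KO PM. The RNA subunits of the enzymes RNase MRP and RNase P, which are not polyadenylated, were lower in both genotypes. *Rmrp* had 9.62 TPM in LDAH-Tg and 23.4 TPM in LDAH-Tg control PM (log2 -1.24), and 4.25 TPM in LDAH-KO and 16.5 TPM in WT PM (log2 -1.84). *Rpph1* had 11.7 TPM in LDAH-Tg and 19.2 TPM in LDAH-Tg control PM (log2 -0.69), and 6.40 TPM in LDAH-KO and 11.3 TPM in WT PM (log2 -0.77). Of 19 other well-known noncoding RNAs, these included, 12 could be compared in LDAH-Tg PM, with a median of 0.23. There 8 were above a ratio of 1, 4 higher and 3 lower by 5/4, against 50.5%, 7.55% and 5.07% of all genes. In LDAH-KO PM 4 of 11 were above 1 and 2 were lower by 5/4, against 33.4% and 9.85%, with a median of -0.13. Another of those lower in LDAH-Tg PM, the mouse gene of *Norad* (2900097C17Rik), had 9.24 TPM in LDAH-Tg and 13.5 TPM in LDAH-Tg control PM (log2 -0.52).

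**Figure D4:**
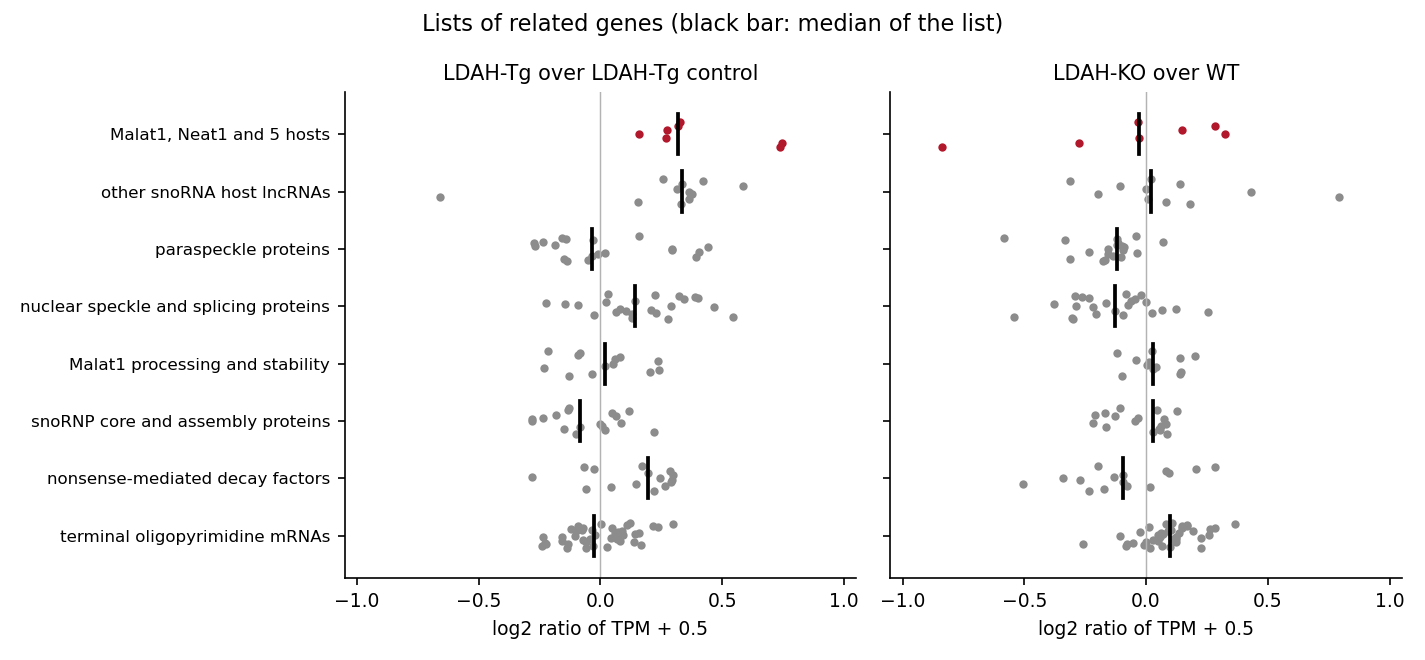
Log2 ratios of the 7 noncoding genes (red) and of 7 lists of related genes (grey points, 1 for each gene, black bar at the median) for LDAH-Tg over LDAH-Tg control PM (left) and LDAH-KO over WT PM (right), with *Snhg7* outside the axis on the left. The medians on the left are 0.32 for the 7 genes and 0.33 for other noncoding hosts, against -0.03 for paraspeckle proteins and for terminal oligopyrimidine mRNAs, and on the right they lie between -0.13 and 0.10 for every list.

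The genes nearest to *Malat1* in both ratios, among 4750 with at least 20 TPM in both comparisons, were *Mir703*, *Srrm2*, *Pnisr*, *Coro7* and *Gm3788*, by the distance in the plane of the 2 log2 ratios. *Mir703* was at a distance of 0.12, with 157 TPM in LDAH-Tg and 86.8 TPM in LDAH-Tg control PM (log2 0.85), and 86.6 TPM in LDAH-KO and 160 TPM in WT PM (log2 -0.88). *Pnisr*, which encodes a nuclear protein rich in serine and arginine, had 76.4 TPM in LDAH-Tg and 59.6 TPM in LDAH-Tg control PM (log2 0.36), and 16.5 TPM in LDAH-KO and 26.5 TPM in WT PM (log2 -0.67). *Coro7*, a coronin of the Golgi, was at log2 0.49 in LDAH-Tg and at -0.45 in LDAH-KO PM. Nearest to *Neat1* were *Gm3788* (distance 0.16), *Safb2*, a scaffold attachment factor of the nucleus (0.18), and *Zc3h7a*, a zinc finger gene (0.21), all at log2 0.55 to 0.63 for LDAH-Tg and -0.38 to -0.36 for LDAH-KO PM. *Gas5* lay near the median of all genes in the LDAH-KO comparison only, and 10.8% of genes had a higher ratio in LDAH-Tg PM. Its neighbours *Slc7a6os*, *Lztr1* and *Tnip2* were at a distance under 0.01. The points share the same 4 group means, and likeness over 2 ratios says nothing of shared control.

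Levels of the 7 genes differed more between the control groups than between either genotype and its control. *Malat1* had 172 TPM in LDAH-Tg control and 70.0 TPM in WT PM (log2 1.30), and *Neat1* had 611 TPM in LDAH-Tg control and 169 TPM in WT PM (log2 1.85). The 5 host genes were also higher in LDAH-Tg control than in WT PM, by log2 0.48 for *Snhg6* to 1.32 for *Snhg1*. All 7 were thus higher in LDAH-Tg control PM, 6 of them by a factor of 1.5, where 12.1% of 11404 genes were higher and 26.5% lower by that factor and the median over all genes was -0.17. The gap was not particular to them. All 11 further noncoding hosts listed by name that had a ratio were also higher by 1.5 (median 1.26, and 1.24 for the 7). Of 363 other long noncoding genes with a ratio that hold no annotated snoRNA, 155 were higher and 31 lower by that factor. Relative to its length class, *Snhg6* was at log2 0.09 between the control groups, and the others were at 0.68 to 2.33. Litter, genotype background and time of preparation cannot be told apart between these groups, so the levels in LDAH-Tg PM are not set against those in LDAH-KO PM.

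Genes on the opposite strand overlap 3 of the 7. *Zbtb37*, over *Gas5*, was between 1.17 and 1.84 TPM in the 4 groups. *Mcmdc2*, over *Snhg6*, was under 1 TPM in every group, and *Gm37376*, over *Malat1*, is listed at 0. The libraries were stranded, and whether strand was used in counting was not given in the sources used here.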

How the data were processed

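RNA of oxLDL-treated PM was sequenced by the authors in 16 samples, 4 in each of 4 groups, from poly(A)-enriched stranded libraries. Their processing notes list STAR 2.4.2a, Cuffdiff 2.2.1, bcl2fastq 2.17.1.14, Trimmomatic and HTSeq, with GRCm38 (mm10). The deposited signal is a mean TPM per group, made by the authors, over 48432 genes that sum to 1000000. A last line of totals was dropped. The tool behind the TPM values and the annotation release were not given in the sources used here. Only group means are held, so no interval or test could be given, and depth is unknown.

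Log2 ratios of TPM + 0.5 cover genes with a mean of at least 1 TPM over the 2 groups and neither group at 0. The last condition removed 62 genes in the LDAH-Tg comparison and 60 in that of LDAH-KO. TPM is a share of the whole library, so a large change in other transcripts moves every value. Where several entries carry a symbol, the one with the highest mean was used. GENCODE M21, which holds 99.2% of the identifiers, gave coordinates, lengths and snoRNA positions. The genes and lists were chosen with earlier results of these data known. Named genes are the 7, up to 3 in each list by the size of their ratio, the nearest neighbours of *Malat1*, *Neat1* and *Gas5*, checks of the labels, and snoRNAs inside the 7. Some genes that this rule names are not reported here. The ratio and count steps were run on simulated group means with planted changes larger than any of the 7 ratios. That run checks the arithmetic and not differences of the size reported here. Work was done in Python 3.11.15 with pandas 2.3.3, numpy 2.4.6 and matplotlib 3.10.9. The alternatives in the closing section are other pseudocounts, filters, scalings and factors.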

Additional observations from a re-analysis of the deposited data

How the results depend on the processing

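The 7 ratios of each comparison were recomputed under 10 other settings and 3 more chosen after seeing the data (relative to genes of like length, of like G and C, and with the shorter *Neat1* transcript). Of 169 such ratios, 159 moved by less than 0.1 and none that reached a factor of 1.5 changed sign, though the filters and factors among the settings cannot move a ratio. *Malat1* stayed between 0.72 and 0.81 in LDAH-Tg and between -0.85 and -0.61 in LDAH-KO PM, and *Neat1* between 0.73 and 0.78 in LDAH-Tg and between -0.28 and 0.04 in LDAH-KO PM. At a factor of 2 none of the 7 is higher in LDAH-Tg (0, not 2) or lower in LDAH-KO PM (0, not 1), and at 5/4 the number higher in LDAH-KO PM is 1. Relative to genes of like G and C, their median in LDAH-KO PM is 0.074. Counts over all genes depend on the settings, of which a fold or a minimum changes the count by construction. In LDAH-Tg PM, 144 were higher and 78 lower, with 255 and 133 without the filter, 57 and 39 at a mean of at least 5 TPM, 860 and 578 at a factor of 5/4, 29 and 20 at a factor of 2, and 91 and 44 when rescaled over protein-coding and long noncoding genes. In LDAH-KO PM, 44 were higher and 207 lower, with 98 and 362 without the filter, 11 and 64 at 5 TPM, 79 and 129 after quantile normalization, 226 and 1112 at 5/4, and 17 and 46 at 2. There 67 were higher with genes at 0 kept and 17 when rescaled. Why quantile normalization and rescaling moved these counts was not tested. Values without each replicate could not be computed, since only means are held. No paired analysis was possible because the columns carry no replicate.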
